A study of Arabidopsis thaliana with 7 samples.

Results

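Fasciclin-like arabinogalactan proteins (FLAs) are glycoproteins of the plasma membrane and cell wall that carry fasciclin domains, a fold used in cell adhesion, beside stretches rich in hydroxyproline that are decorated with arabinogalactan chains. Most are tethered to the outer face of the membrane by a glycosylphosphatidylinositol (GPI) anchor. In Arabidopsis they are known for roles in root growth, shoot development and the deposition of secondary cell walls in the stem. The 9 genes described here, FLA1, FLA2, FLA6, FLA7, FLA8, FLA9, FLA11, FLA12 and FLA13, were taken by gene identifier, and all 9 were found among the 32548 genes of the count table and the 33557 genes with an FPKM value. FLA1, FLA2 and FLA8 encode proteins with a pair of fasciclin domains, and the other members of the set encode proteins with a single one.

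The study compared whole seedlings of the Arabidopsis thaliana hon45 mutant with Col-0 wild type (WT), both 10 days after germination and grown on agar at 22 °C under 16 h of light and 8 h of darkness. HON4 and HON5, the genes named by the mutant label, encode chromatin proteins related to linker histones. Poly(A) RNA was sequenced from 2 libraries of each genotype, and no label says that these came from separately grown plants, so p-values measure the spread between these libraries, which may be technical. A further 3 immunoprecipitation samples, 2 from HON5-Myc plants and 1 from WT, were not analysed here. The mutant alleles are not named in the labels, and no single mutant of either gene was analysed here.

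Totals were 59639582 and 58390911 counts in the hon45 libraries, against 53858439 and 63543079 counts in the WT libraries. HON4 and HON5 transcripts both fell in the mutant, with log2 fold changes of −1.34 and −2.66 (edgeR adjusted p = 5.42e-08 and 3.09e-12). Both kept their call under every alternative that tested them. HON4 overlaps another counted gene and was not tested with such genes left out. Over all 29226 tested genes, 724 rose and 475 fell in hon45.

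FLA6 fell in hon45, to about 0.651 of its WT level, and it was the 1 member of the 9 that passed the test (edgeR's quasi-likelihood test with Benjamini-Hochberg adjustment over all tested genes, at an adjusted p under 0.05). No member rose. FLA2 and FLA9, among the most abundant of the set, stood at 0.789 and 0.807 of their WT levels without passing. FLA1, FLA7, FLA8, FLA13 and the xylem-associated FLA11 and FLA12 had differences with 95% intervals that include 0. Of all tested genes 4.10% were called, 2.48% as higher and 1.63% as lower, and the 1 of 9 members called is FLA6 alone.

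Levels were compared between genes as FPKM, a unit in which fragments are divided by transcript length and by the depth of the library. FLA2 was the most abundant, with 178.5 and 178.6 FPKM in hon45 libraries and 236 and 220 FPKM in WT libraries. FLA6 had the lowest mean, with 5.98 and 6.08 FPKM in hon45 and 8.34 and 10.9 FPKM in WT. The highest member stood at 29.9 and 29.4 times the lowest in the hon45 libraries, against 28.3 and 20.5 times in the WT libraries, where the lowest was FLA6 except in WT replicate 2, where it was FLA12.

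**Figure D1:**
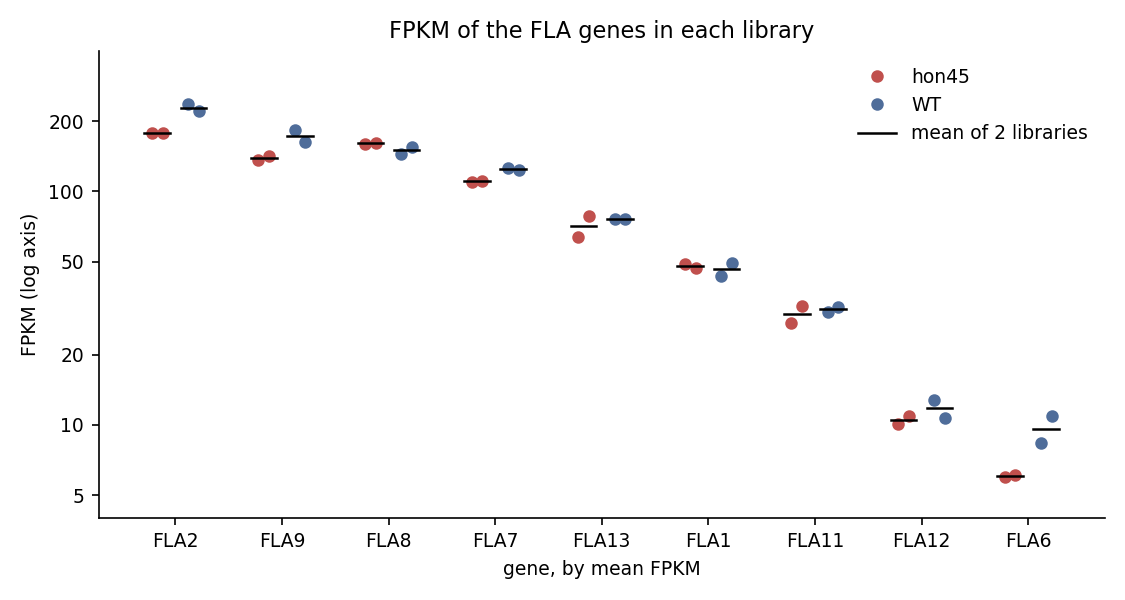
FPKM (log axis) of each of the 9 FLA genes in the 2 hon45 libraries (red, left) and the 2 WT libraries (blue, right), ordered by mean FPKM, with the mean of each pair as a black bar. FLA2, FLA9, FLA7 and FLA6 have both hon45 points under both WT points, FLA8 has both above, and the other genes overlap.

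In hon45 the order of mean FPKM was FLA2, FLA8, FLA9, FLA7, FLA13, FLA1, FLA11, FLA12 and FLA6, and the ranges of neighbours in that order did not overlap. In WT the order was the same except that FLA9 stood above FLA8. FLA12, at 10.8 to 12.8 FPKM, and FLA6, at 8.34 to 10.9 FPKM, were the neighbours in WT whose ranges overlapped. Summed over the 9 genes, FPKM was 741 and 767 in hon45 libraries, against 861 and 840 in WT libraries. FLA2, FLA8 and FLA9 together gave most of this sum, with mean shares of 23.7%, 21.3% and 18.4% in hon45 and 26.8%, 17.6% and 20.3% in WT.

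FLA6 (AT2G20520; TAIR10 chromosome 2, 8840663 to 8841461), which encodes a protein with a single fasciclin domain, had 233 and 240 counts in hon45 libraries, against 322 and 408 counts in WT libraries. Expressed as CPM, that is, relative to library totals adjusted by TMM, these were 3.86 and 4.20 in hon45 and 5.95 and 6.41 in WT. Both hon45 libraries lay below both WT libraries. The log2 fold change was −0.62 (SE 0.17, 95% interval −0.98 to −0.26, n = 2 per genotype, edgeR adjusted p = 0.0471). The call is close to the threshold and held in 6 of 18 alternatives, while the log2 difference stayed between −0.68 and −0.52 in all 18. It was lost with DESeq2 (adjusted p = 0.0648) and with any 1 of the 4 libraries left out. The log2 difference was −0.52 and −0.68 without hon45 replicates 1 and 2, and −0.67 and −0.56 without WT replicates 1 and 2. Calls over all genes became fewer without either hon45 library. They became more frequent without WT replicate 2, where the FLA6 call was lost all the same.

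FLA2 (AT4G12730; chromosome 4, 7491383 to 7492876) had 204 and 211 CPM in hon45, against 273 and 254 CPM in WT. The 2 hon45 libraries agree closely and both lie under the WT libraries. The log2 difference was −0.34 (SE 0.10, 95% interval −0.56 to −0.12), with an edgeR adjusted p of 0.0686. FLA2 passed under 6 of the 18 alternatives. These included DESeq2 (adjusted p = 0.0434), limma-voom (adjusted p = 0.0499) and library totals without TMM (edgeR adjusted p = 0.0459). It also passed with the stricter count filter (edgeR adjusted p = 0.041) and the gene-length trend fitted on genes from 5 CPM removed (edgeR adjusted p = 0.0315). The last was WT replicate 2 left out, at −0.39, where calls over all genes were also more frequent. Its log2 difference ranged from −0.39 to −0.28 over the alternatives. FLA6 and FLA2 passed together in 2 alternatives, FLA6 without FLA2 in 4, FLA2 without FLA6 in 4, and neither in 8.

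FLA9 (AT1G03870; chromosome 1, 982506 to 983540), of the group with a single fasciclin domain, had 100.1 and 107 CPM in hon45 and 137 and 120.3 CPM in WT. Again the hon45 libraries did not reach the WT libraries. The log2 difference was −0.31 (SE 0.10, 95% interval −0.52 to −0.10), with an edgeR adjusted p of 0.0937. Without WT replicate 2 it stood at −0.40 and passed, in a fit where calls over all genes were also more frequent. It did not pass at −0.21 without WT replicate 1, at −0.22 without hon45 replicate 1 or at −0.36 without hon45 replicate 2.

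FLA7 (AT2G04780; chromosome 2, 1676742 to 1678455), of the same group, had 104 and 108 CPM in hon45, against 121 and 117 CPM in WT. The genotypes did not overlap, but the distance was small, with a log2 difference of −0.16 (SE 0.10, edgeR adjusted p = 0.4). FLA7 held a mean share of 14.7% of the summed FPKM in hon45 and 14.6% in WT.

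FLA8 (AT2G45470; chromosome 2, 18742540 to 18744111), first described as the arabinogalactan protein AGP8, was the 1 member with both hon45 libraries above both WT libraries. It had 193 and 202 CPM in hon45, against 176.5 and 189 CPM in WT. The log2 difference was 0.11 (SE 0.10, 95% interval −0.10 to 0.32, edgeR adjusted p = 0.622), and it stayed above 0 in all 18 alternatives without passing in any. Within each library, FLA9 stood at 0.854 and 0.879 times the FPKM of FLA8 in hon45, against 1.27 and 1.04 times in WT. FLA2 stood at 1.12 and 1.11 times FLA8 in hon45, against 1.64 and 1.42 times in WT. Both ratios were chosen after their values were seen and are given without a test.

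FLA1 (AT5G55730; chromosome 5, 22558148 to 22560461), which is known to act in shoot development from tissue culture, had 58.9 and 58.2 CPM in hon45 and 53.3 and 60.0 CPM in WT. The hon45 libraries fell between the WT libraries. Its log2 difference of 0.05 (95% interval −0.16 to 0.25, edgeR adjusted p = 0.85) turned to −0.03 without WT replicate 1.

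FLA11 and FLA12 are known from the stem, where they contribute to secondary wall cellulose and stem strength. FLA11 (AT5G03170) had 18.0 and 21.5 CPM in hon45, against 20.2 and 20.9 CPM in WT. FLA12 (AT5G60490; chromosome 5, 24325727 to 24326702) had 7.08 and 8.10 CPM in hon45, against 9.14 and 7.60 CPM in WT. In both genes the genotypes overlapped, and the log2 differences were −0.06 (95% interval −0.30 to 0.18) for FLA11 and −0.14 (95% interval −0.45 to 0.17) for FLA12, with edgeR adjusted p-values of 0.845 and 0.689. FLA11 stood at 2.72 and 2.94 times the FPKM of FLA12 in hon45, against 2.38 and 2.97 times in WT.

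The FLA11 value is less certain than the others, because its span overlaps that of the co-chaperone gene P58IPK (AT5G03160) in the RefSeq gene table and the FPKM files give both a joint locus (chromosome 5, 750109 to 753657). The other 8 members overlap no counted gene. FLA11 changed sign without hon45 replicate 1, to 0.10, and with the gene-length trend removed, to 0.00 and 0.02.

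FLA13 (AT5G44130; chromosome 5, 17761090 to 17762003) had 40.9 and 51.1 CPM in hon45, against 49.5 and 48.5 CPM in WT. The 2 hon45 libraries lay on either side of the WT pair, with a log2 difference of −0.09 (95% interval −0.32 to 0.13, edgeR adjusted p = 0.717). It was −0.26 without hon45 replicate 2 and 0.09 without hon45 replicate 1.

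**Figure D2:**
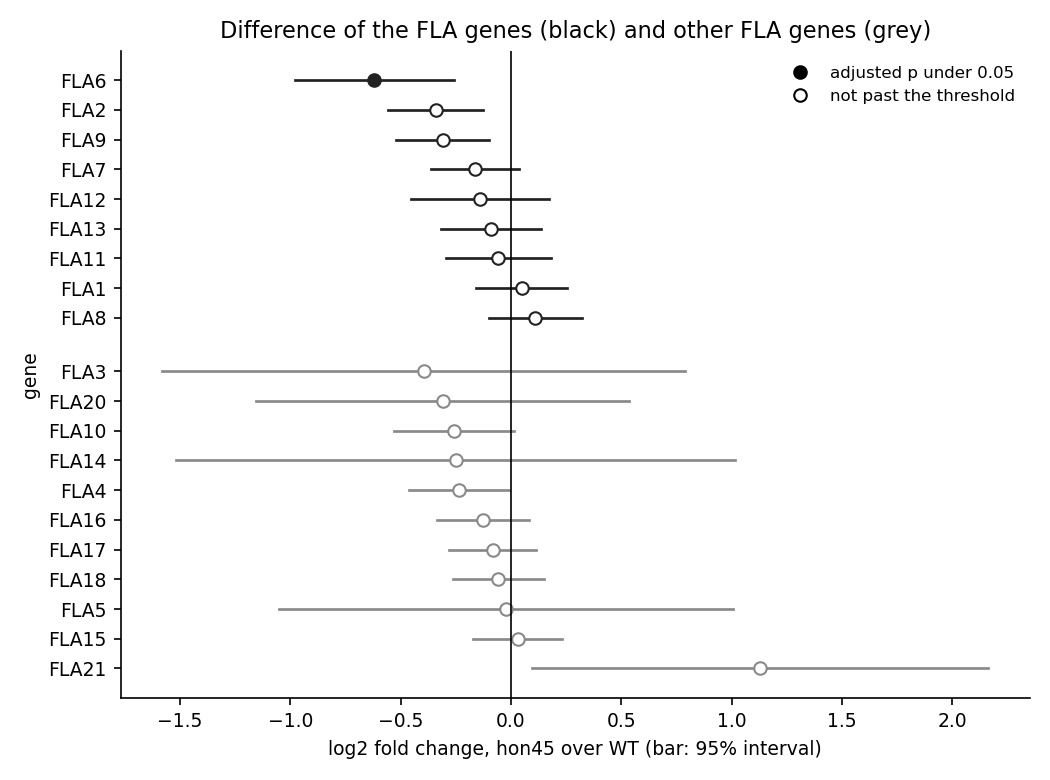
Log2 fold change, hon45 over WT, of the 9 FLA genes (black) and 11 other FLA genes (grey), with the 95% interval as a bar and a filled point where the edgeR adjusted p is under 0.05. FLA6 at −0.62 has the 1 filled point, and the widest intervals belong to FLA3, FLA5, FLA14, FLA20 and FLA21, all under 1 CPM.

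The 9 members were chosen with earlier results of these data known, so the shares over all tested genes are not an independent comparison. Taken by sign, 7 of the 9 members lay below 0 and 2 above, where 55.3% of all tested genes lay below 0. Their median log2 fold change was −0.14, against −0.04 over all tested genes. Both hon45 libraries lay below both WT libraries in 4 members and above them in 1, where 26.2% and 23.1% of all tested genes did so, and 49.3% in all did not overlap. At an unadjusted p under 0.05, 3 members were lower and 0 higher in the edgeR test, where 8.16% of all tested genes were lower at that level. The median followed the hon45 libraries, at −0.01 without hon45 replicate 1 and −0.24 without hon45 replicate 2. Centred on each gene's own mean, the median log2 CPM of the members was −0.17 and 0.02 in the hon45 libraries, against 0.10 and 0.06 in the WT libraries, so that hon45 replicate 1 was the lowest library.

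The deposited FPKM values gave differences in the same direction for all 9 members, and 4 of them again had both hon45 libraries below both WT libraries, where 24.5% of genes tested on FPKM did. On the log2(FPKM + 1) scale, which understates the change of low genes, FLA6 stood at −0.59, FLA2 at −0.35 and FLA9 at −0.31. None passed with limma-trend (adjusted p = 0.097, 0.097 and 0.127), where 0.621% of 19493 tested genes were called. At an unadjusted p under 0.05, 3 members were lower and 0 higher in that test, where 9.63% of genes tested on FPKM were lower at that level. Because of how the members were chosen, these shares are not an independent comparison either.

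The rest of the family served as a comparison, with 11 further FLA genes whose names matched the RefSeq table. None of these was called by edgeR, DESeq2 or limma-voom, nor any of the 6 that could be tested on FPKM, while 1 was higher and 1 lower at an unadjusted p under 0.05 in the edgeR test. Of all tested genes 17.9% had such a p, in either direction. The median log2 fold change of the 11 was −0.13, and 9 of 11 lay below 0. FLA4, also called SOS5, which acts with the receptor kinases FEI1 and FEI2 in root wall growth, had 30.0 and 33.3 CPM in hon45, against 40.5 and 34.1 CPM in WT. Its log2 difference was −0.23 (edgeR adjusted p = 0.261). With WT replicate 2 left out it passed at −0.35, where calls over all genes were also more frequent. FLA10, which like FLA8 encodes a protein with a pair of fasciclin domains, had 9.42 and 10.4 CPM in hon45, against 11.3 and 12.4 CPM in WT. Its log2 difference was −0.26 (edgeR adjusted p = 0.309).

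Of the other genes of the family above 1 CPM, 4 had smaller differences. FLA16, known from the stem, FLA17, FLA18 and FLA15 had log2 differences of −0.13, −0.08, −0.06 and 0.03. The span of FLA16 overlaps an lncRNA gene, and those of FLA3 and FLA14 overlap a neighbouring gene. FLA3, FLA5, FLA14, FLA20 and FLA21 were each under 1 CPM on average; FLA3 and FLA14 are known from pollen. FLA21 had 58 and 32 counts in hon45, against 20 and 21 counts in WT, a log2 difference of 1.13 (SE 0.50) with an edgeR adjusted p of 0.231. FLA3, FLA5, FLA14 and FLA20 stood at −0.40, −0.02, −0.25 and −0.31 without passing.

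Genes that act on or beside FLA proteins were taken as lists. These lists and the marker lists below were chosen with earlier results of these data known, so their counts are not an independent comparison. Of 11 enzymes that hydroxylate proline or build the arabinogalactan chains, 0 rose and 1 fell, with a list median of 0.05. Over all tested genes 2.48% rose and 1.63% fell. GALT3 to GALT6 and HPGT1 to HPGT3 were also listed but were dropped, because the RefSeq gene table does not carry those names. The counts therefore cover only part of these enzymes. The gene that fell was P4H2, a prolyl 4-hydroxylase that makes the hydroxyproline to which the chains are attached. It had 44.2 and 44.4 CPM in hon45, against 58.5 and 62.0 CPM in WT, and fell by 0.44 on the log2 scale (SE 0.10, edgeR adjusted p = 0.0134). P4H2 passed in 12 of 18 alternatives. Without hon45 replicate 1 or 2 it did not pass, at −0.40 and −0.44, in fits where calls over all genes also became fewer. The other prolyl hydroxylases, P4H5 and P4H13, stood at 0.22 and −0.27 without passing. GlcAT14B, a glucuronosyltransferase of these chains, stood at 0.34 without passing. With WT replicate 2 left out it passed at 0.44, where calls over all genes were also more frequent.

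Of 5 genes for FEI kinases and GPI anchor synthesis, 0 were called by edgeR, DESeq2, limma-voom or limma-trend on FPKM, and 0 had an unadjusted p under 0.05 in these tests. Over all tested genes, 4.10% were called and 17.9% had an unadjusted p under 0.05 in the edgeR test, in either direction. The median of the 5 genes was 0.07, with FEI1 at 0.18 and FEI2 at 0.07. The 22 genes of secondary wall synthesis and xylem, the setting in which FLA11 and FLA12 are known, likewise had 0 calls and 0 with an unadjusted p under 0.05 in these tests, and 11 lay above 0. The secondary wall cellulose synthases CESA4, CESA7 and CESA8 stood at 0.09, −0.05 and 0.06, and the list median was 0.01. With WT replicate 2 left out, the xylan synthesis gene IRX14 stood at 0.43 and the xylem protease gene XCP2 at 0.40. Both passed as higher in that fit, where calls over all genes were also more frequent. With all libraries they stood at 0.22 and 0.19. Of 9 primary wall cellulose genes 0 were called and 0 had an unadjusted p under 0.05 in these tests, with a list median of 0.08 and a range of −0.14 to 0.18.

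**Figure D3:**
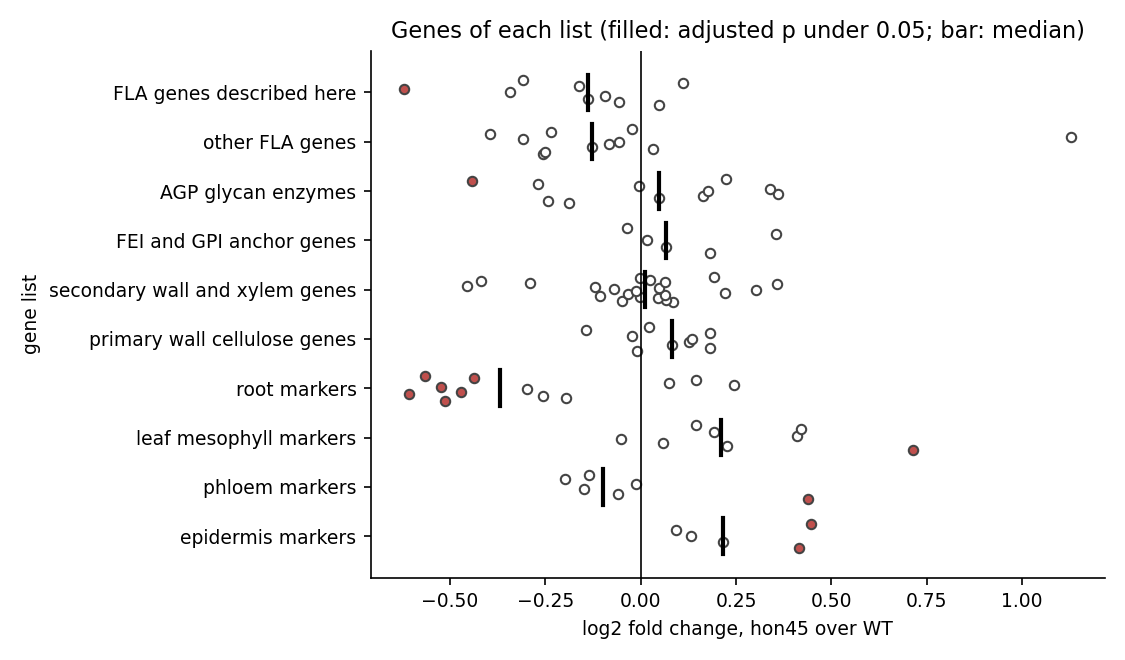
Log2 fold change, hon45 over WT, of each gene in the lists, filled where the edgeR adjusted p is under 0.05, with a black bar at the list median. The median of the 9 FLA genes is −0.14, that of the secondary wall and xylem genes is 0.01 and that of the root markers is −0.37.

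Whole seedlings mix organs, and a lower level in such bulk RNA cannot tell fewer cells of a type from less RNA per cell. Of 12 root markers, 6 fell in hon45 beside FLA6 and 0 rose, where 1.63% of all tested genes fell and 2.48% rose. Both hon45 libraries lay below both WT libraries in 9 of the 12, where 26.2% of all tested genes did so. The other 3 had both hon45 libraries above both WT libraries without passing, namely the beta-glucosidase gene PYK10 at 0.25 and SCR and SHR, transcription factor genes of root patterning, at 0.07 and 0.14. Among those that fell, EXP18, a root hair expansin, had 21.3 and 22.0 CPM in hon45, against 35.9 and 30.1 CPM in WT, a log2 fold change of −0.61 (edgeR adjusted p = 0.00391). TIP2;3, a tonoplast aquaporin, fell by 0.57, PRP3, a root hair wall protein gene, by 0.52 and CASP1, of the Casparian strip, by 0.51. CASP1 stood at −0.34 without WT replicate 1. TIP2;3 stood at −0.70 without hon45 replicate 1 and −0.42 without hon45 replicate 2, and PRP3 at −0.37 and −0.66. EXP18 and CASP1 each overlap another counted gene, so their counts are less certain. With limma-trend on FPKM 0 of the 12 were called, where 0.621% of genes tested on FPKM were. With the gene-length trend removed, 7 were called lower as fitted from 5 CPM and 3 as fitted from 1 CPM. The list median was −0.37 with all libraries, −0.29 without hon45 replicate 1 and −0.36 without hon45 replicate 2. Few or none of the 6 calls held without either hon45 library, in fits where calls over all genes also became fewer. The summed CPM of the 12 markers, which weighs abundant genes most, was 4583 and 4659 in hon45, against 4091 and 4405 in WT. It was higher in hon45 although 9 of the 12 lay lower. None of the markers was at 0 in any library. The part of these markers in the FLA6 result was not tested.

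Markers of leaf, epidermis and phloem that were called were higher in hon45, where 2.48% of all tested genes rose and 1.63% fell. Of 8 leaf mesophyll markers 1 rose, the carbonic anhydrase gene CA1 at 0.71, and 7 lay above 0. Their summed CPM was 27286 and 28833 in hon45, against 23124 and 27298 in WT. Of 5 epidermis markers 2 rose, the homeobox genes PDF2 at 0.45 and ATML1 at 0.42, with summed CPM of 564 and 601 in hon45, against 487 and 524 in WT. Of 6 phloem markers 1 rose, the proton pump gene AHA3 at 0.44, and 5 lay below 0, with summed CPM of 622 and 670 in hon45, against 692 and 636 in WT. None of these markers was at 0 in any library, and their part in the FLA results was not tested. With hon45 replicate 1 left out CA1, PDF2, ATML1 and AHA3 did not pass, at 0.79, 0.52, 0.45 and 0.49. With hon45 replicate 2 left out they did not pass either, at 0.67, 0.41, 0.41 and 0.43. Calls over all genes also became fewer in both fits. With the gene-length trend from 5 CPM removed, PDF2, ATML1 and AHA3 stood at 0.29, 0.26 and 0.28 and did not pass (edgeR adjusted p = 0.068, 0.126 and 0.068). CA1 overlaps another counted gene. It did not pass with DESeq2 (adjusted p = 0.211), and it stood at 1.11 without WT replicate 2. CA1 and ATML1 also failed with WT replicate 1 left out, at 0.41 and 0.29.

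Outside the family, the genes whose libraries followed the median profile of the 9 members most closely were AT5G66090, AT5G06395, NUDT16, a Nudix hydrolase gene, SERAT3;2, a serine acetyltransferase gene, and PDV2, a plastid division gene. Likeness was the Euclidean distance between log2 CPM values centred on each gene's mean, over the 4 libraries and 7756 genes of at least 20 CPM. It was 0.0133, 0.0134, 0.0142, 0.0193 and 0.0224 for these 5 genes, against a median of 0.256. The 5 were picked as the smallest distances, so their place far under the median follows from the choice. None of the 5 was called, and AT5G06395 and SERAT3;2 each overlap another counted gene.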

How the data were processed

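Raw whole-number counts per gene were deposited by the authors in 1 table with a column per library, and FPKM values were deposited in 1 file per library, per the file headers. HISAT2, Bowtie2, deepTools, edgeR and TAIR10 are named in the submitters' processing notes, without roles. The counting program, the strand setting and the annotation were each not given in the sources used here. For counts, the quasi-likelihood test of edgeR 4.0.16 in R 4.3.3 (filterByExpr, TMM, glmQLFit with its newer method, glmQLFTest) was run, with genotype as the only term and Benjamini-Hochberg adjustment over 29226 genes. "Rose" and "fell" are used at an adjusted p under 0.05. The SE is the size of the log2 fold change divided by the root of F, and 95% intervals use the t distribution of the fit. FPKM was tested by limma-trend (limma 3.58.1) on log2(FPKM + 1), keeping genes that reached 1 FPKM in 2 libraries. DESeq2 1.42.0, limma-voom and other settings made 18 alternatives. All FLA genes whose names matched and, of every other list, up to 4 called genes with the smallest p were named by rule. Other list genes were named outside this rule. In the RefSeq gene table (TAIR10.1), 98 of 110 list entries carried their name, and 12 were dropped. The members and lists were chosen with earlier results of these data known. Loci are those of the FPKM files, with 1 added to the start.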

Additional observations from a re-analysis of the deposited data

How the results depend on the processing

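Over 18 alternatives, FLA2, FLA6, FLA7, FLA8, FLA9 and FLA12 kept their direction in all that tested them. The count of FLA genes called lower, 1 in the reported test, was 2 with limma-voom and with at least 5 CPM in 2 libraries, and 0 with no count filter, with the gene-length trend removed as fitted from 1 CPM and in the 3 FPKM fits; it ranged from 0 to 2 with 1 library left out. With DESeq2, with library totals without TMM and with the length trend from 5 CPM removed, the 1 gene was FLA2 and not FLA6. The median of the 9 genes, −0.14, ranged from −0.238 to −0.0113 with 1 library left out. With 1 library left out FLA1 ranged from −0.0328 to 0.138, FLA11 from −0.188 to 0.0997 and FLA13 from −0.26 to 0.0948, and so changed sign, FLA1 without WT replicate 1 and the others without hon45 replicate 1. FLA11 also reversed to 0.0041 and 0.0237 with the length trend from 5 and 1 CPM removed. The cause was not tested.

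Over all genes, 724 were called higher and 475 lower. Higher calls numbered 345 with at least 5 CPM, 451 and 471 with the length trend from 5 and 1 CPM removed, and 40, 36 and 2 in the FPKM fits (pseudocount 1, pseudocount 0.1, no filter). Lower calls numbered 231 with the trend from 1 CPM removed, and 81, 74 and 5 in the FPKM fits. With 1 library left out, higher calls ranged from 37 to 2229 and lower calls from 82 to 1607. The older quasi-likelihood method of edgeR was chosen after seeing the data. No label says that same-numbered libraries of the genotypes were paired. The correlation of their deviations was 0.062 over 15592 genes, which with 2 pairs cannot tell whether they were. With the replicate block, 1119 genes were called higher, and FLA6 was still called, at −0.62 (edgeR adjusted p = 0.0313). With 2 libraries per genotype and FLA6 at 233 to 408 counts, its 95% interval ran from −0.98 to −0.26.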
